A study of Mus musculus with 6 samples.

Results

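The 10 transcription factors of dendritic and myeloid lineages followed in the mouse dendritic cell line DC2.4, and in its derivative labelled PD-L1 knockout, were Spi1, Irf8, Irf4, Id2, Batf3, Zeb2, Klf4, Tcf4, Cebpa and Runx1. The members were chosen by gene symbol, and all 10 were found among the 31205 genes of the read count table. Each group had 3 RNA-seq libraries, numbered 1 to 3 in the labels: the control libraries carry the genotype label Control, and the others the label PD-L1 knockout. The labels give no treatment, no age of culture and no statement on whether the knockout line is 1 clone or on whether the libraries came from separate cultures, so p-values cover the spread among these 6 libraries only, and that spread may be technical.

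Lineage transcription factors decide which myeloid cell a progenitor becomes and keep that identity in the mature cell. PU.1, the ETS protein encoded by Spi1, opens myeloid enhancers, often together with C/EBPalpha (Cebpa) and RUNX1, and recruits IRF8 or IRF4 to composite DNA elements. In dendritic cells, IRF8 with BATF3 and the inhibitor ID2 marks the conventional type 1 subset, IRF4, KLF4 and ZEB2 act in the type 2 subset, and the E protein TCF4 drives the plasmacytoid subset, where ID2 opposes it.

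Of these factors, Cebpa showed the clearest difference, being 4.70-fold lower in knockout libraries, and Tcf4 was lower by 0.50 on the log2 scale. The Tcf4 call was lost in 4 of the 6 fits that left out 1 library. The called share of all tested genes, 25.3% with all libraries, was lower in those fits too. It was 5.5% without control library 2 and 15.4% without control library 3. It was 8.89% without knockout library 2 and 10.4% without knockout library 3. These shares are also the background of other calls said below to be lost in those fits. The Tcf4 estimate changed sign, to 0.18, after removal of each library's trend with gene length and GC. Spi1, Irf8 and Runx1, which are general myeloid regulators or dendritic cell factors, did not pass the test at log2 fold changes of 0.22, 0.03 and -0.04. Id2 and Klf4 did not pass either, and their values in knockout library 1 lay far from those in knockout libraries 2 and 3, in opposite directions. Batf3 had at most 4 counts in any library and was not tested. Thus 0 members were higher, 2 lower and 7 without a call among the 9 tested, a called share of 22.2% beside 25.3% of all 11453 tested genes, so the members were called about as often as genes in general. Lower calls made up 13.5% of all tested genes. The groups did not overlap for 2 of the 9, beside 43% of all tested genes. The median log2 fold change over the 9 was -0.37, against 0.01 over all tested genes. Calls are at an adjusted p under 0.05 in edgeR's quasi-likelihood test, with Benjamini-Hochberg adjustment over all tested genes, and log2 fold changes are knockout minus control.

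The sequences just upstream of 3 members are shown because their transcript levels carry the main patterns: Cebpa, lower in every knockout library, and Id2 and Klf4, which set knockout library 1 apart. Promoter sequences of RefSeq on build GRCm38.p6, 250 bases before to 50 after each start site, were matched for 8 of the 10 members (not for Spi1 and Tcf4). The 250 upstream bases are printed 5′ to 3′ on the gene's own strand, with capitals for matches to TATAAA or CCAAT, searched on both strands. The regions are chr7:35119043-35119292 (plus strand), chr12:25096093-25096342 (minus strand, a start inside the longer GENCODE gene model) and chr4:55532476-55532725 (minus strand).
Cebpa: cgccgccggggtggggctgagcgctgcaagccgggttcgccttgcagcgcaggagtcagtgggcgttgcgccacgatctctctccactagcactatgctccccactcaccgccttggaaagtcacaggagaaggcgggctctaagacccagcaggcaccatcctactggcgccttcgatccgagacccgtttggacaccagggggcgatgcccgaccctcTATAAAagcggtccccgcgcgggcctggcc
Id2: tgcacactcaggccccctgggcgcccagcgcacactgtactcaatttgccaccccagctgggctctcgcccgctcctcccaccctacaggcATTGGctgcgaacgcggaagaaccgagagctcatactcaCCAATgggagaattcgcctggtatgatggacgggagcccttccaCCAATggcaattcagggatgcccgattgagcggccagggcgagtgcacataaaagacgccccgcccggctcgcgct
Klf4: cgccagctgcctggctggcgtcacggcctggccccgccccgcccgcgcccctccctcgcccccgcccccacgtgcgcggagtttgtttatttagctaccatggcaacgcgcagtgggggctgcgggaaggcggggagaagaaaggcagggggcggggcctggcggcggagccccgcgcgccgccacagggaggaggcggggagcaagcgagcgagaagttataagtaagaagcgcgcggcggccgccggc

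The Cebpa window held 1 TATAAA, beginning 30 bases before the start site, a string found in 13.6% of the 32817 mouse promoter windows of the same length. Id2 had 3 matches to CCAAT, 76, 120 and 159 bases before the start site, the last of them on the opposite strand, and CCAAT occurs in 37.4% of windows. Klf4 had 0 of either. Strings typical of the members' own binding sites were searched on both strands in the 300 bases: TTGCNNAA (C/EBP, in 10.8% of all windows), GAGGAA (PU.1, 28.3%), the tandem IRF element (3.43%), the ETS-IRF composite element (2.72%), TGANTCA (AP-1, 7.81%), CACCTG (E proteins and ZEB, 20.2%), TGTGGT (RUNX, 16.8%) and GGGTGTG (KLF, 7.95%). The windows of Cebpa, Id2 and Klf4 held 0 matches to these. Among the other members, the PU.1 string stood in all 4 windows of Zeb2, in 1 of the 2 of Runx1, and in the windows of Irf4 and Batf3. Of the Zeb2 windows, 2 overlap, and their PU.1 match is the same string. Zeb2 also had 2 AP-1 strings in 1 window and a C/EBP string in another. The remaining window of Runx1 held 2 RUNX strings and 1 E protein string, and 1 of the 2 windows of Irf8 held 1 E protein string. A match is a description of letters and not a binding site.

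The libraries held between 10918498 and 23250065 counts, with control library 1 the shallowest. Cd274, which encodes PD-L1, had 52, 99 and 171 counts in controls 1, 2 and 3 and 102, 81 and 163 in knockouts 1, 2 and 3 (log2 change 0.28 with SE 0.25, edgeR adjusted p = 0.415), so transcript counts do not check the knockout label. Control library 2 stood apart in the collagen gene Col1a1 (2235 counts) and the fibronectin gene Fn1 (1382 counts). Those genes had at most 5 and 3 counts in any other library. Other genes of stromal cells were low in control library 2, with 22 counts for Col1a2, 10 for Col3a1, 7 for Pdgfrb and 0 for Pdgfra. The transcription factor genes Ets1 and Ebf1 had 60 and 37 counts there and at most 2 and 0 in any other library. Markers of the labelled cell type were mixed. Cst3, Cd74 and the integrin Itgax, expressed by dendritic cells, were abundant, while the receptor gene Flt3 and the homing receptor gene Ccr7 had at most 1 count in any library, and Clec9a and Siglech, which mark type 1 and plasmacytoid cells, had 0 in all. The MHC class II genes H2-Aa and H2-Ab1 and the class II activator gene Ciita had at most 11, 4 and 4 counts in any library. The class II gene H2-Eb1 had 72 to 484 counts. Macrophage genes were mixed too. Cd68, Csf1r and Adgre1 were well detected, while Mertk, Mrc1 and C1qa had at most 5, 4 and 6 counts in any library. The part of these marker genes in the results was not tested.

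Levels were set between genes as RPKM (reads per kilobase of exon, scaled for library size, with the union of GENCODE exons as length). On this scale Spi1 was the highest member in both groups, at 57.7 ± 3.24 RPKM in control and 66.9 ± 12.5 in knockout (SD, n = 3), and Id2 followed at 28.1 ± 10.2 and 41.6 ± 27.5. In control, Cebpa (6.19 ± 0.86), Irf8 (6.13 ± 0.27) and Zeb2 (6.13 ± 1.14) came next and did not differ beyond their spread. Runx1 (3.06 ± 0.43), Tcf4 (1.73 ± 0.11), Klf4 (1.27 ± 0.26), Irf4 (0.59 ± 0.32) and Batf3 (0.08 ± 0.06) followed. Of these, Tcf4 lay above Klf4 in every control library and Irf4 below Klf4. In knockout, Cebpa dropped from the third to the sixth place, at 1.31 ± 0.09 RPKM, beside Tcf4 at 1.22 ± 0.12, from which it did not differ beyond the spread. With the longest transcript as length, the levels of long genes rose (Tcf4 5.53 and Runx1 6.28 RPKM in control), and Cebpa in control, at 6.21 RPKM, stood in sixth place below Zeb2, Irf8 and Runx1. In knockout on that scale it took the seventh place, at 1.31 ± 0.09 RPKM, below every value of Tcf4 (3.91 ± 0.40), so its place in the order and its nearness to Tcf4 rest on the choice of length.

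**Figure D1:**
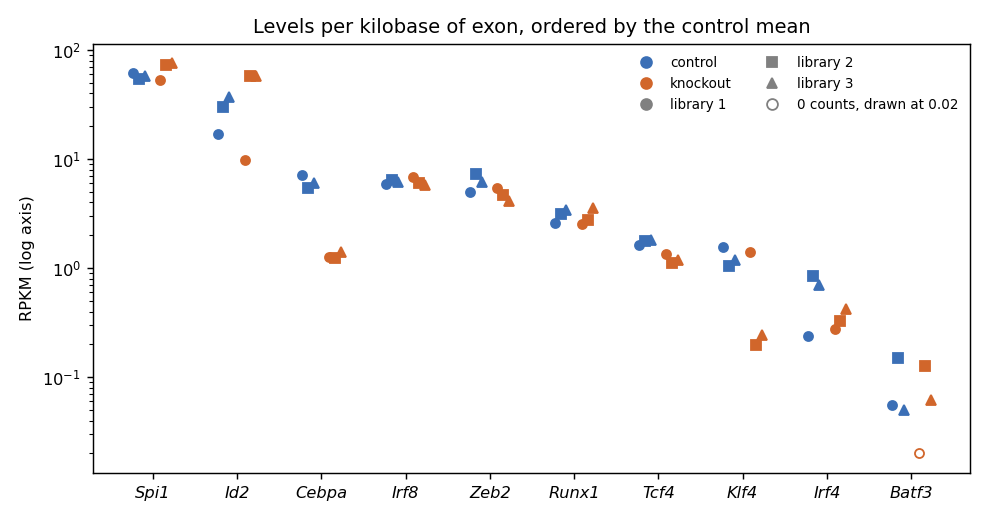
Level of each factor per library in RPKM (log axis), factors ordered by the control mean, control in blue and knockout in orange, with the marker shape giving the library number. Cebpa sits between 5.39 and 7.10 RPKM in control and between 1.25 and 1.42 in knockout, and Batf3 is at the bottom, with 0 counts in knockout library 1 drawn as an open marker.

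Spi1 (ENSMUSG00000002111.8, chromosome 2, 91082390 to 91115756, mm10, plus strand) encodes PU.1, without which macrophages and dendritic cells do not form. It had 165, 147 and 154 CPM (counts relative to library size, scaled by TMM factors) in controls 1, 2 and 3, and 142, 196 and 203 in knockouts 1, 2 and 3. Knockout libraries 2 and 3 lay above every control library and knockout library 1 below, so the groups overlapped. The log2 fold change was 0.22 (95% CI -0.13 to 0.56, SE 0.16, edgeR adjusted p = 0.32), and without knockout library 1 it was 0.36 and called (adjusted p = 0.0367).

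Irf8 (ENSMUSG00000041515.10, chromosome 8, 120736358 to 120756694, plus strand) encodes the interferon regulatory factor required for type 1 conventional dendritic cells and for monocytes. Its levels were the most even of the tested members in control. They were 41.3, 45.1 and 43.4 CPM in controls 1, 2 and 3 and 48.5, 43.0 and 40.8 in knockout. The groups overlapped fully, at a log2 fold change of 0.03 (95% CI -0.27 to 0.32, SE 0.13, edgeR adjusted p = 0.902), an interval that leaves out a 1.5-fold change in either direction. Under the 16 alternative settings the change ranged from -0.13 to 0.24, none of them called (edgeR, DESeq2 or limma-voom adjusted p from 0.159 to 0.998).

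Irf4 (ENSMUSG00000021356.10, chromosome 13, 30749226 to 30766976, plus strand), the related factor of type 2 dendritic cells, was scarce. It had 13, 70 and 86 counts in controls 1, 2 and 3 and 18, 24 and 42 in knockout, which gave 1.16, 4.15 and 3.44 CPM against 1.36, 1.61 and 2.09. Control library 1 was the lowest of all 6, below every knockout library, while control libraries 2 and 3 were the highest. The log2 fold change was -0.80 (95% CI -1.78 to 0.17, SE 0.44, edgeR adjusted p = 0.196). Only without control library 1, among the 16 alternatives, was it called lower (-1.15, adjusted p = 0.0404).

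Batf3 (ENSMUSG00000026630.9, chromosome 1, 191097847 to 191108945, plus strand) encodes the AP-1 family protein that keeps Irf8 transcription going in type 1 dendritic cells. It had 1, 4 and 2 counts in controls 1, 2 and 3 and 0, 3 and 2 in knockout, in all 7 against 5. The ratio of knockout to control was 0.786, with a 95% counting interval of 0.197 to 2.88 that covers counting error only, so no difference was detectable at this depth. The related genes Batf and Batf2 were also near 0, with at most 5 and 4 counts in any library.

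Cebpa (ENSMUSG00000034957.10, chromosome 7, 35119293 to 35121928, plus strand) encodes C/EBPalpha, which commits progenitors to the myeloid lineage and restrains their division. It had 209, 240 and 401 counts in controls 1, 2 and 3 and 44, 49 and 75 in knockout, or 18.7, 14.2 and 16.02 CPM against 3.32, 3.29 and 3.73. Every knockout library lay below every control library, and the 3 knockout values were within 1.13-fold of each other. Cebpa fell from 16.3 ± 2.25 to 3.45 ± 0.25 CPM (SD, n = 3), a log2 fold change of -2.23 (95% CI -2.67 to -1.79, SE 0.20, edgeR adjusted p = 0.000157). It was called lower in all 16 alternatives, at -2.39 to -2.13. In bulk RNA, fewer cells that express a gene and less RNA per cell cannot be told apart. An antisense gene, Gm45091, overlaps 51 exon bases of Cebpa and had at most 1 count in any library.

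The other C/EBP genes did not share that fall. Cebpb, whose protein acts in inflammatory and stress responses and binds the same DNA sites, rose from 65.3 ± 7.98 to 98.9 ± 8.44 CPM (log2 change 0.60 with SE 0.14, edgeR adjusted p = 0.0157). That call was lost with control library 2 left out (0.50, adjusted p = 0.0921), with knockout library 2 left out (0.53, adjusted p = 0.0654), and when the trend of each library with exon length and GC was removed (0.29, adjusted p = 0.101). Cebpd (0.54), Cebpe (-0.16) and Cebpg (0.16) did not pass the test. Per kilobase of exon, Cebpa stood at 6.19 RPKM and Cebpb at 43.4 RPKM in control, and at 1.31 and 65.8 in knockout.

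Runx1 (ENSMUSG00000022952.17, chromosome 16, 92601466 to 92826149, minus strand) encodes a core binding factor that works with PU.1 and C/EBPalpha at myeloid genes. It had 31.1, 38.0 and 41.2 CPM in controls 1, 2 and 3 and 30.6, 33.6 and 43.2 in knockout, with the groups overlapping over their whole range. The log2 fold change was -0.04 (95% CI -0.42 to 0.34, SE 0.17, edgeR adjusted p = 0.878). Its DNA-binding partner gene Cbfb (0.15, adjusted p = 0.479) and the relatives Runx2 (0.12) and Runx3 (0.07) did not pass either. After removal of the length and GC trend, the estimate for Runx1, a gene of 12025 exon bases, was 0.38, still without a call (adjusted p = 0.2).

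**Figure D2:**
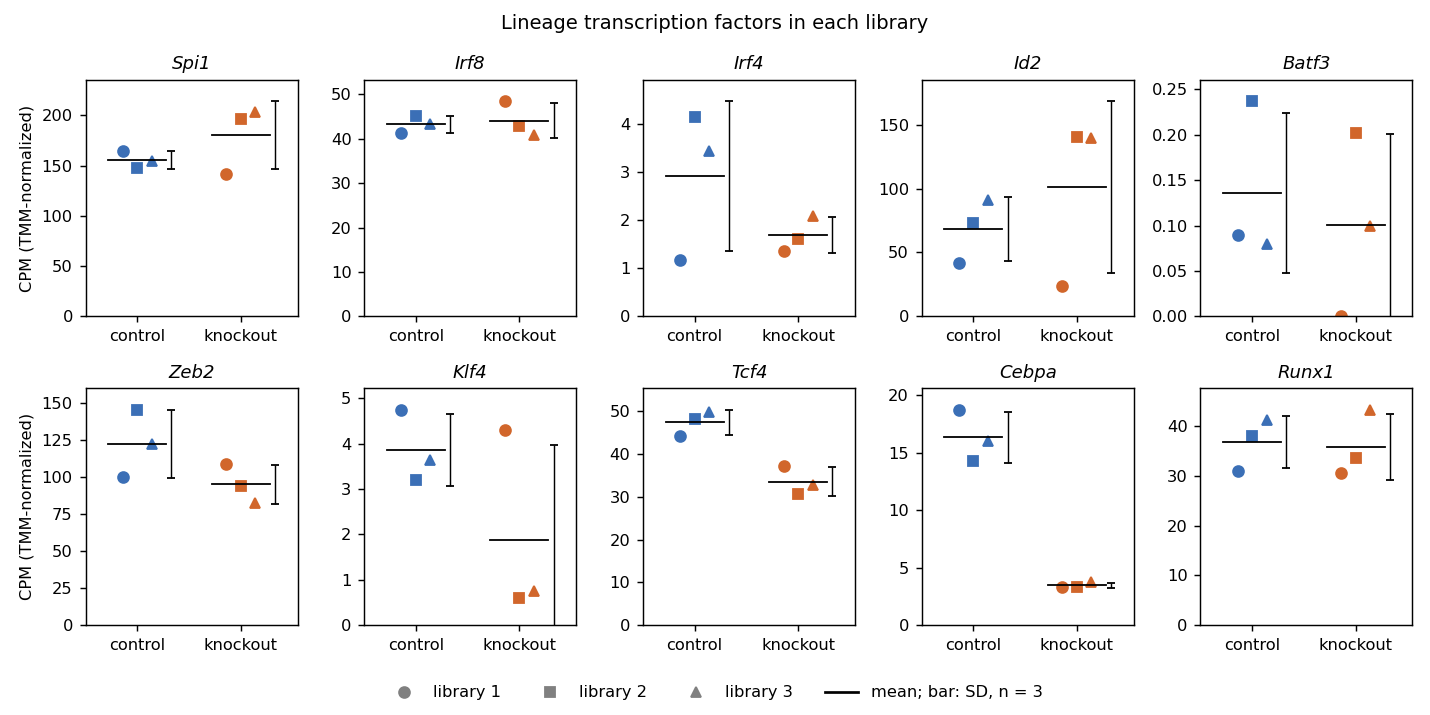
TMM-normalized CPM of the 10 factors in each library, with control in blue and knockout in orange, the marker shape giving the library number, the line the mean and the bar the SD (n = 3, cut off at 0). Cebpa and Tcf4 are the panels in which the groups do not overlap, and knockout library 1 lies apart for Id2 (23.8 CPM) and Klf4 (4.30 CPM).

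Tcf4 (ENSMUSG00000053477.17, chromosome 18, 69343356 to 69689079, plus strand) encodes the E protein E2-2 that specifies plasmacytoid dendritic cells. Values were 44.2, 48.2 and 49.8 CPM in controls 1, 2 and 3 and 37.2, 30.6 and 32.8 in knockout, so that the groups did not overlap. It fell from 47.4 ± 2.89 to 33.5 ± 3.39 CPM, a log2 fold change of -0.50 (95% CI -0.80 to -0.20, SE 0.14, edgeR adjusted p = 0.0251). The call was lost without control library 2 (-0.49, adjusted p = 0.112) or 3 (-0.46, adjusted p = 0.0843), and without knockout library 2 (-0.44, adjusted p = 0.0999) or 3 (-0.48, adjusted p = 0.0923). After removal of the length and GC trend, the estimate for this gene of 27382 exon bases changed sign, to 0.18 (adjusted p = 0.332).

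The E protein partners of Tcf4 were measured beside it. Tcf12, encoding the E protein HEB, was lower (176 ± 9.62 to 120 ± 27.6 CPM, log2 fold change -0.55, edgeR adjusted p = 0.0366). Its groups did not overlap, and knockout library 1, at 152 CPM, was closer to the controls than knockout libraries 2 and 3 (109 and 101). The call for Tcf12 was lost without control library 1, 2 or 3 or knockout library 2 or 3 (adjusted p from 0.0635 to 0.143), and after removal of the length and GC trend (-0.07, adjusted p 0.666). Tcf3, encoding E2A, did not pass the test, at 73.4 ± 9.69 CPM in control and 74.9 ± 1.60 in knockout (0.03, adjusted p = 0.881).

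Id2 (ENSMUSG00000020644.9, chromosome 12, 25093799 to 25097140, minus strand) encodes a helix-loop-helix protein without a DNA-binding region, which holds E proteins off DNA and is needed for type 1 conventional dendritic cells. It had 465, 1236 and 2272 counts in controls 1, 2 and 3 and 315, 2095 and 2804 in knockout, or 41.6, 73.2 and 90.8 CPM against 23.8, 141 and 139. Knockout library 1 was the lowest of the 6 libraries and knockout libraries 2 and 3 were the highest. The spread among knockout libraries was 5.89-fold, and 0.699% of tested genes had as large a spread there. The log2 fold change was 0.56 (95% CI -0.61 to 1.73, SE 0.52, edgeR adjusted p = 0.448). Without knockout library 1 it was 1.02 and called (adjusted p = 0.00456).

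The other ID genes had the same order of libraries at the low end. Id1 had 33, 125 and 299 counts in controls 1, 2 and 3, and 6, 169 and 219 in knockout. Id3 had 60, 393 and 713 in control and 5, 714 and 994 in knockout, or 5.37, 23.3 and 28.5 CPM against 0.38, 48.0 and 49.4. For all 3 ID genes, library 1 was the lowest of its group in both groups, and knockout library 1 the lowest of all. Neither Id1 (0.01, edgeR adjusted p = 0.993) nor Id3 (0.76, adjusted p = 0.572) passed the test with all libraries, and Id3 was called higher without knockout library 1 (1.31, adjusted p = 0.0204). The AP-1 gene Jun followed a like order, with 58.1, 110 and 119 CPM in control and 39.4, 201 and 228 in knockout (0.70, adjusted p = 0.323; without knockout library 1, 1.15, adjusted p = 0.00201). The labels do not say that a shared number marks a shared batch.

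**Figure D3:**
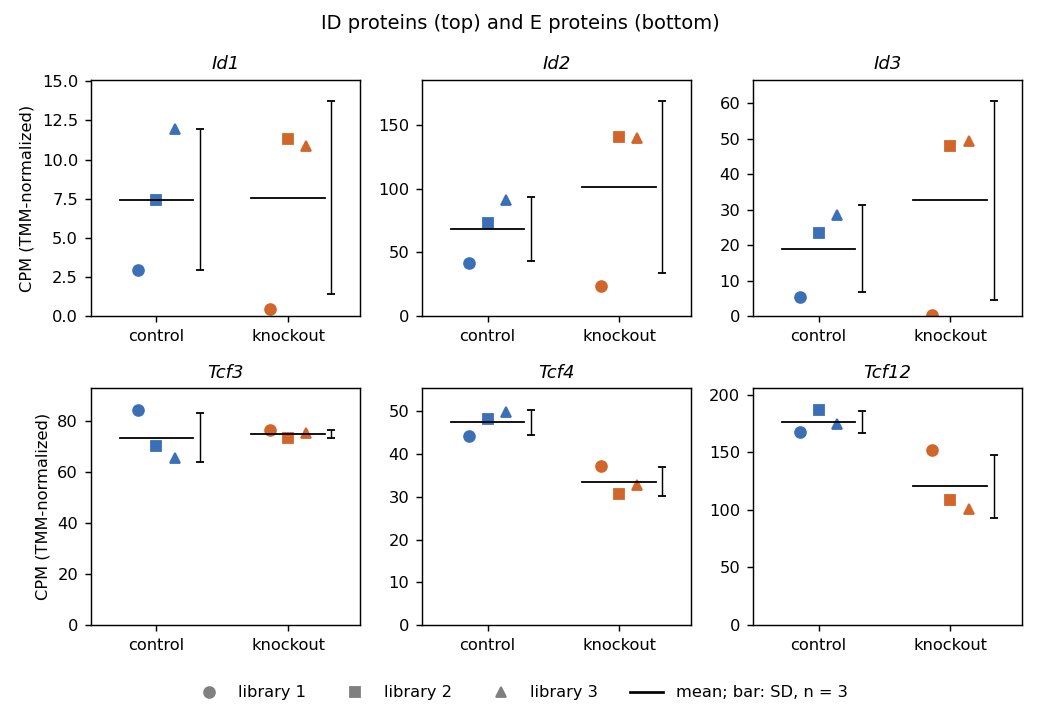
TMM-normalized CPM of the ID genes Id1, Id2 and Id3 (top) and the E protein genes Tcf3, Tcf4 and Tcf12 (bottom) in each library, with the line at the mean and the bar at the SD (n = 3, cut off at 0). Library 1, drawn as a circle, is the lowest of its group for each ID gene, down to 0.38 CPM for Id3 in knockout.

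Klf4 (ENSMUSG00000003032.8, chromosome 4, 55527143 to 55532466, minus strand) encodes a zinc-finger factor of monocytes and of a type 2 dendritic cell branch. It had 53, 54 and 91 counts in controls 1, 2 and 3 and 57, 9 and 15 in knockout, or 4.74, 3.20 and 3.64 CPM against 4.30, 0.60 and 0.75. Knockout library 1 lay within the control range, and knockout libraries 2 and 3 below every control. The spread among knockout libraries was 6.12-fold, and 0.576% of tested genes had as large a spread. The log2 fold change was -1.07 (95% CI -2.47 to 0.33, SE 0.63, edgeR adjusted p = 0.228), and without knockout library 1 it was -2.48 and called (adjusted p = 0.000549).

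Zeb2 (ENSMUSG00000026872.17, chromosome 2, 44983632 to 45117395, minus strand) encodes a repressor that acts in monocytes, type 2 and plasmacytoid dendritic cells and lowers Id2. It had 99.5, 145 and 122 CPM in controls 1, 2 and 3 and 108, 94.0 and 82.4 in knockout. Control library 1 lay between the knockout values, and the other controls above all of them. The log2 fold change was -0.37 (95% CI -0.74 to 0.01, SE 0.17, edgeR adjusted p = 0.127), called only without knockout library 1 (-0.48, adjusted p = 0.0329). After removal of the length and GC trend, the estimate for this gene of 19942 exon bases was 0.16 (adjusted p = 0.339). Zeb2os, an antisense gene overlapping 653 of its exon bases, had at most 21 counts in any library, and the relative Zeb1 had at most 5.

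**Figure D4:**
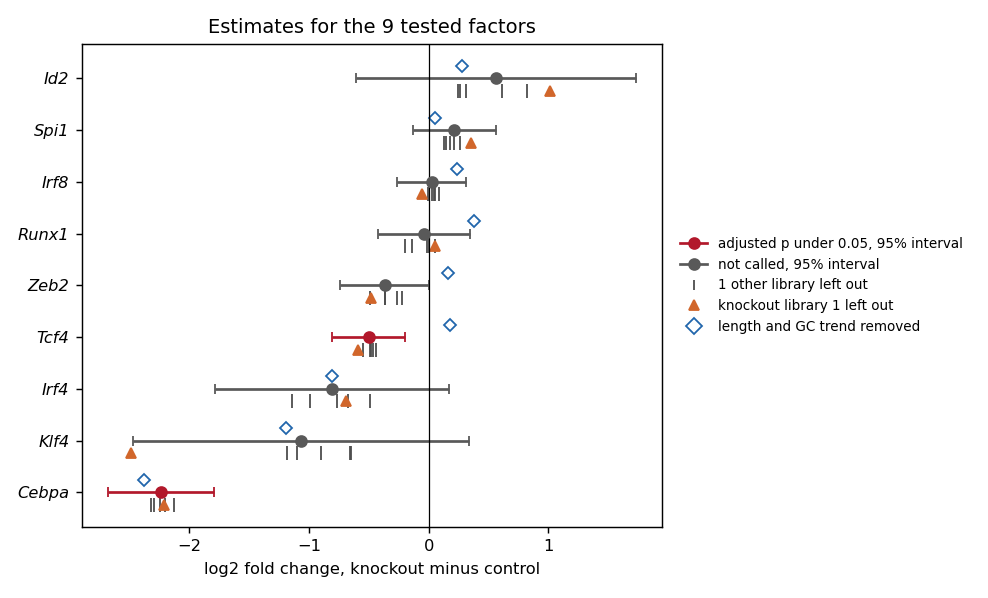
Log2 fold change, knockout minus control, of the 9 tested factors with its 95% interval, in red where the adjusted p was under 0.05. Ticks and the orange triangle give the estimate with 1 library left out, and the open diamond that after removal of the length and GC trend. Leaving out knockout library 1 takes Klf4 to -2.48 and Id2 to 1.02, and the diamond of Tcf4 lies above 0, at 0.18.

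Ratios of 2 members within a library do not depend on the single factor by which each library is scaled. The length and GC trend was not removed from them. Pairs can differ in length, as Id2 (2438 exon bases) does from Tcf4 (27382) and Zeb2 (19942). For 5 pairs of factors with joint or opposing roles, the log2 ratio (0.5 counts added to each gene) was compared by an exact two-sided permutation test, in which 3 libraries against 3 cannot give a p below 0.1. Spi1 to Cebpa was 3.13, 3.37 and 3.27 in controls 1, 2 and 3 and 5.4, 5.88 and 5.76 in knockout. This difference of 2.42, or 5.37-fold, gave the smallest exact permutation p the design allows (p = 0.1, adjusted over the 5 pairs 0.5). Id2 to Tcf4 was -0.09, 0.60 and 0.87 in control, and -0.65, 2.20 and 2.09 in knockout. Its groups overlapped through library 1 (difference 0.75, exact permutation p = 0.5). Irf8 to Irf4 (difference 0.64, exact permutation p = 0.3), Klf4 to Irf4 (-0.96, exact permutation p = 0.5) and Zeb2 to Id2 (-0.61, exact permutation p = 0.6) overlapped too, and each adjusted p was 0.6. The differences of these 4 pairs moved with single libraries. With 1 library left out, Id2 to Tcf4 ranged from 0.26 (without knockout library 2) to 1.68 (without knockout library 1), and Zeb2 to Id2 from -1.56 (without knockout library 1) to -0.09 (without knockout library 3). Klf4 to Irf4 ranged from -1.98 (without knockout library 1) to -0.25 (without control library 1), and Irf8 to Irf4 from 0.32 (without control library 2) to 1.16 (without control library 1). Spi1 to Cebpa stayed between 2.32 and 2.56.

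A list of 89 other transcription factors and cofactors of blood cell lineages, chosen by role, gives the setting of these members. Like the lists that follow, it was drawn up with earlier results of these data known. All 89 were in the table, 61 had enough counts to be tested, and 3 were higher and 12 lower (24.6% called, beside 25.3% of all tested genes), with a median log2 fold change of 0.02. The groups did not overlap for 26 of the 61, beside 43% of all tested genes. Rxra, a partner of nuclear receptors, rose from 8.55 ± 1.29 to 21.9 ± 2.7 CPM (1.35, SE 0.18, edgeR adjusted p = 0.00148). Irf7, the interferon response factor of plasmacytoid cells, fell from 3.07 ± 0.50 to 0.80 ± 0.10 CPM (-1.95, SE 0.33), and the ETS factor gene Elf4 fell from 36.3 ± 4.31 to 19.4 ± 2.89 (-0.90, SE 0.16).

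Further lower calls were those of Notch1 (-2.0), the cytokine signal transducer Stat5b (-0.72), the NF-kB subunit Rel (-0.67), Foxo3 (-0.55) and the ETS factor Elf1 (-0.47), and Nfil3, which acts early in type 1 dendritic cell formation, was higher (0.52). Of the 11 called genes the naming rule selects, Cebpb included, Rxra, Irf7 and Elf4 were called in all 16 alternatives. The losses that follow stand beside the called share of all tested genes, 25.3% with all libraries. That share was 5.5% without control library 2, 8.89% without knockout library 2 and 10.4% without knockout library 3. It was 15.4% without control library 3, 21.2% without control library 1 and 42.2% without knockout library 1. Without control library 2, calls were lost for 8 of the 11, among them Stat5b, Rel, Notch1, Cebpb, Foxo3, Elf1 and Nfil3 (adjusted p from 0.0654 to 0.127). Without knockout library 2, 6 were lost (Rel, Notch1, Cebpb, Foxo3, Elf1 and Nfil3, 0.0575 to 0.0746), and without knockout library 3, 4 (Notch1, Foxo3, Elf1 and Nfil3, 0.0637 to 0.0857). Notch1, Elf1 and Nfil3 were not called without control library 3 (0.0611 to 0.104), and Nfil3 was not called without control library 1 (0.0806), knockout library 1 (0.058) or with scaling by total counts alone (0.145). After removal of the length and GC trend, Notch1, Cebpb, Foxo3 and Nfil3 were not called (0.0689 to 0.313). Spib, a close relative of Spi1 in plasmacytoid cells, had 0 counts in all libraries.

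**Figure D5:**
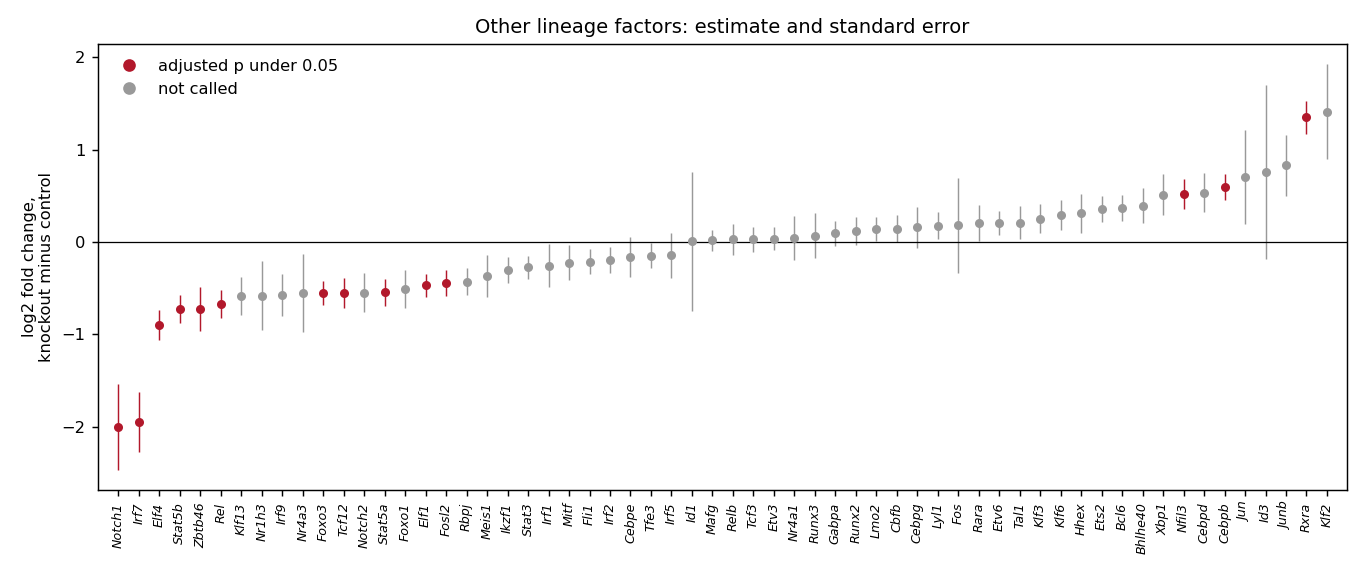
Log2 fold change, knockout minus control, of tested genes in the list of other lineage factors, ordered by estimate, with the standard error as bar and red for an adjusted p under 0.05. Notch1 (-2.0) and Irf7 (-1.95) lie at the left end and Rxra (1.35) lies near the right end.

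Within this list, the gene whose pattern over the 6 libraries lay nearest to that of Cebpa was Irf7, with a root mean square distance of 0.353 in mean-centred log2 CPM (median over the 61 candidates 1.12). For Tcf4 it was Elf1, with a distance of 0.0807 (median 0.354). Among proteins that bind the members at DNA or hold them off it, 13 of 20 genes were tested, all of them but Ctbp1 and Ctbp2 also in the list above. Cebpb was the 1 higher call and Tcf12 the 1 lower, with 11 not called (15.4% called, beside 25.3% of all tested genes), among them Ctbp1 (0.34) and Ctbp2 (-0.11), encoding corepressors of ZEB2.

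Receptors carry the signals under which these lineages form. Of 13 tested receptor genes for growth and differentiation factors, 6 were lower and 0 higher, a called share of 46.2% beside 25.3% of all tested genes, of which 13.5% were lower. Among the 6 were Notch1, also counted with the other lineage factors, and Csf1r (-0.72), also counted with the macrophage genes below. Csf2ra, the GM-CSF receptor chain, went from 44.6 ± 8.98 to 24.8 ± 3.49 CPM (-0.84, SE 0.18, edgeR adjusted p = 0.0111), and Il10ra (-2.25, SE 0.27) and Tgfbr2 (-0.73, SE 0.14) were lower as well. Csf3r, encoding the G-CSF receptor, had 7, 72 and 96 counts in controls 1, 2 and 3 and 8, 3 and 6 in knockout (-3.04, SE 0.69, adjusted p = 0.0141). Its control library 1 was low, at 0.63 CPM, close to the knockout range. Leaving out control library 2 ended the call of Tgfbr2 (adjusted p = 0.0548), and Csf3r was not called without control library 2 (0.0657) or knockout library 2 (0.0635) or 3 (0.0579). Of all tested genes, 5.5% were called without control library 2, 8.89% without knockout library 2 and 10.4% without knockout library 3.

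Genes of the dendritic cell subsets that these factors specify, the members themselves left out, were often too scarce to be tested. Some were abundant, with control means of 268 CPM for Sirpa and 101 CPM for Cadm1. The counts that follow stand beside 25.3% called among all tested genes, 11.8% higher and 13.5% lower. Of 10 type 1 genes 5 were tested, with 0 higher and 3 lower, Btla (-3.22) and the adhesion gene Cadm1 (-0.79) among them. Of 11 type 2 genes 4 were tested, with Ltb higher (1.07) and Sirpa lower (-0.43). Of 13 plasmacytoid genes 8 were tested, with 1 higher (Bst2, 0.50) and 3 lower, namely Pacsin1 (29.2 ± 8.48 to 2.35 ± 0.65 CPM, -3.64), Irf7 and Tlr9 (-1.22). Zbtb46, a factor of conventional dendritic cells, was the 1 call of 6 tested general genes (-0.72, edgeR adjusted p = 0.049). Except for Pacsin1 and Irf7, each of these named calls was lost without knockout library 2 (adjusted p from 0.0591 to 0.144), and all of these but Btla also without control library 2 (0.067 to 0.179). Of all tested genes, 8.89% were called without knockout library 2 and 5.5% without control library 2. Without knockout library 3, Cadm1, Ltb, Sirpa, Tlr9 and Zbtb46 were not called (0.0609 to 0.15), without control library 3 Sirpa, Bst2 and Zbtb46 (0.0836 to 0.171), and without control library 1 Tlr9 and Bst2 (0.0612 and 0.0689). Removal of the length and GC trend ended the calls of Bst2 (adjusted p = 0.743), Ltb (0.12) and Zbtb46 (0.183). Zbtb46 was also not called with the replicate number as a block (0.0568), Zbtb46 and Sirpa not without a filter on low counts (0.0549 and 0.0508), and Ltb and Bst2 not with scaling by total counts alone (0.052 and 0.107).

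Macrophage and monocyte genes had 1 higher and 6 lower of 13 tested (53.8% called, beside 25.3% of all tested genes), the falls including the lysozyme gene Lyz2 (-2.81), Fcgr1 (-1.18), Cd163 (60 counts in the controls together, 8 in the knockouts) and Ly6c2 (177 and 3 counts). Their summed level was 1155 to 1413 CPM in control and 964 to 1342 in knockout, with Ccr2 at 0 in all libraries. Trem2 was the higher call (0.66, edgeR adjusted p = 0.0114), and the abundant Cd68 (0.04) and Adgre1 (-0.09) were among the 6 not called. Of 14 granulocyte genes 2 were tested. The neutrophil protease gene Prtn3 was lower (10, 40 and 50 counts in control, 0, 2 and 2 in knockout), and Cebpe was the other. Lymphocyte genes summed to 4.80 to 6.26 CPM in control and 4.70 to 5.89 in knockout, with Pax5, Cd8a and Cd3g at 0. Of these sums, Gata3 held 2.84 to 4.92 CPM in control and 3.96 to 4.91 in knockout. Ebf1 held 2.19 CPM in control library 2 and 0 in every other library. Stromal, epithelial and endothelial genes summed to 0.81 to 218 CPM in control, the highest being control library 2, and 0.30 to 1.28 in knockout. In control library 2, Col1a1 stood at 132 CPM and Fn1 at 81.9 CPM.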

How the data were processed

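RNA-seq libraries of DC2.4 cells and of the derivative labelled PD-L1 knockout, 3 each, were prepared by KAPA Hyper Prep from total RNA, per the labels' protocols. The authors deposited whole-number read counts per gene symbol, not scaled. The submitters' processing notes name Trimmomatic 0.39, STAR 2.7.5c, StringTie 2.1.7 and build mm10. How reads were counted, with which annotation and with what use of strand is not given in the sources used here, so reads of overlapping antisense genes cannot be separated.

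Sample titles gave groups and replicate numbers, and columns were matched to them by name. The members and gene lists were chosen with earlier results of these data known. Genes named outside the members are up to 12 called genes of the list of other lineage factors and up to 4 of each other list, by adjusted p with groups that do not overlap and at most 8 in 1 direction in the first, Cd274, 6 partner genes (Tcf3, Id1, Id3, Cbfb, Batf, Jun) whatever their result, and for each called member the other lineage factor with the nearest pattern. Further genes were named after their values were seen (marker genes that were abundant or near 0, Trem2, Gata3, H2-Eb1, Col1a1, Fn1, Ets1, Ebf1, Ctbp1, Ctbp2, Spib, Batf2, Zeb1 and C/EBP and RUNX relatives). A gene that the rule selects is not reported here. Counts were filtered with filterByExpr (11453 of 31205 genes kept) and scaled by TMM. Groups were compared with the quasi-likelihood F test of edgeR 4.0.16 (in R 4.3.3, beside limma 3.58.1), two-sided, with Benjamini-Hochberg adjustment over all tested genes at 0.05. SE was taken from the F statistic. Positions and lengths came from GENCODE M21 of the same build, and both length and GC were known for 98.4% of tested genes. The 16 alternatives were other scalings, filters, DESeq2 1.42.0, limma-voom, the replicate block, offsets for each library's robust loess trend (span 0.3) with exon length and GC content, alone and with the block, and leaving out each library.

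The test was checked on simulated counts with known changes: of 11476 tested, it called 78.6% of the 98 changed by an absolute log2 of 1 and 100% of the 100 changed by 2, and 5.85% of its calls were unchanged genes. The changed genes were few beside the 25.3% called in the real data, so these rates need not carry over. Replicates were compared, and none repeated another within sampling noise.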

Additional observations from a re-analysis of the deposited data

How the results depend on the processing

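Cebpa was called lower under all 16 alternatives. Tcf4 was called in the other scalings, filters, tests and the replicate block, but its sign reversed after removal of the length and GC trend, alone (0.18) or with the replicate block (0.18). That correction left 1 member lower in place of 2, also with the block (1), and of the other lineage factors 5 higher and 6 lower (6 and 6 with the block) in place of 3 and 12. Of all tested genes, 20.4% were called after it (20.1% with the block), in place of 25.3%. The other lineage factors had 6 higher calls without a filter on low counts and 6 with the replicate block alone. Of all tested genes, 18.6% were called without the filter and 28% with the replicate block alone. With the block, 3 members were lower, Klf4 being added (-1.47, edgeR adjusted p = 0.0278). Same-numbered libraries did not all deviate together (correlations of 0.154, -0.0644 and 0.358 for numbers 1, 2 and 3). Libraries of different numbers had correlations from -0.324 to 0.141. Whether the numbers pair the samples cannot be told from so few values. Scaling by total counts alone shifted all genes to a median log2 change of -0.14, with 667 genes higher (in place of 1353) and 2212 lower (1543), and 19 other lineage factors lower. Called genes that were higher made up 23.2% under it and 46.7% under TMM scaling. With 1 library left out, 166 to 2346 genes were higher and 472 to 2616 lower, the lowest counts without control library 2 and the highest without knockout library 1. Members called higher ranged from 0 to 2 and lower from 1 to 4, and other lineage factors called higher from 1 to 9 and lower from 2 to 17. Without knockout library 1, 42.2% of all genes were called, so the 6 members called there have that share as their background. The cause of these shifts was not tested. The 5 ratios moved by less than their SD with a pseudocount of 2. Batf3 had at most 4 counts in any library, too few to be tested.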
